A study of Mus musculus with 8 samples.

Results

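Messenger RNAs that IRE1 is known to cut were followed through plasma cells lacking Blimp1 or Xbp1. The members were 6 known substrates chosen by name, out of 27179 genes in the count table: Bloc1s1, Hgsnat, Pmp22, Scara3, Sparc and Col6a1. Each was matched by its Entrez identifier, and all 8 libraries were read. RNA-seq libraries came from C57BL/6 mouse bone marrow plasma cells, sorted as positive for a Blimp1-GFP reporter and for surface CD138, so every group shares the reporter. Batch 1 held wild-type (WT) replicates 1 and 2 and 2 Blimp1-/- libraries (Blimp1KO), and batch 2 held WT replicates 3 and 4 and 2 Xbp1-/- libraries (Xbp1KO). No treatment, time or mouse age is named in the sources used here, nor are the deletion's driver, the exons removed or whether animals were pooled. Knockouts were compared with WT of their own batch.

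IRE1, encoded by Ern1, is a sensor in the membrane of the endoplasmic reticulum (ER) whose cytosolic part is an RNase. It cuts the Xbp1 mRNA at paired stem loops, after which a ligase joins the ends into the message for the active transcription factor XBP1s, a main driver of the secretory programme of plasma cells. The same RNase can cut other mRNAs, many of them translated at the ER, in a process known as regulated IRE1-dependent decay, and Bloc1s1 (also called Blos1) is its most widely used marker. Loss of XBP1 is known to leave IRE1 overactive in several secretory cell types. BLIMP1, encoded by Prdm1, is the transcription factor that sets up the plasma cell programme.

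IRE1 reads a short loop closed by a stem. The windows below show the cut loops of Xbp1 and the best-paired loop found in Bloc1s1 and Hgsnat, which carry the results, and in Pmp22, the most abundant of the scarce members, with the 7-base loop CNGCAGN in capitals. They are DNA letters of the transcript strand, 5′ to 3′, from the GENCODE M21 transcripts on GRCm38.
Xbp1, chr11:5524270-5524316, plus strand, exon 4: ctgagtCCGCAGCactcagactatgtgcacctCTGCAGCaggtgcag
Bloc1s1, chr10:128920000-128920028, minus strand, coding, exon 4: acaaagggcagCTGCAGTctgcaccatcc
Hgsnat, chr8:25955740-25955768, minus strand, coding, exon 11: tccctggtgtcCTGCAGCggttgggagtg
Pmp22, coding, across an exon junction: tgagcgaatggCTGCAGTctgtccaggcc

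In Xbp1 the cuts of the 2 loops lie 26 bases apart, which is the piece that splicing removes. The longest stem beside any such loop had 4 pairs in Bloc1s1, 4 in Pmp22, 5 in Scara3, 3 in Hgsnat, 3 in Col6a1 and 1 in Sparc, with G-T counted as a pair, against 7 in Xbp1. The core CTGCAG, which reads the same on both strands, occurred 4 times in the Bloc1s1 transcript and 2 times in that of Hgsnat, but it was in 79.1% of 21864 protein-coding genes. A CNGCAGN loop on the transcript strand with a stem of at least 4 pairs was in 11.4% of those genes, in 2.28% of 747 transcripts of a length similar to Bloc1s1, and in 11.3% of 5377 of a length similar to Hgsnat, whose own best stem is below that limit. Of those 5377, 85.5% held CTGCAG. These matches describe letters and were not tested as cut sites.

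Total counts ran from 44012152 to 145411827 per library. Immunoglobulin genes took 75.75% of counts in WT replicate 1 and 25.2% in Xbp1KO replicate 2. The joining chain gene Jchain was counted among them here and where immunoglobulin genes were removed. Levels are therefore given as TMM-scaled CPM (reads of a gene relative to the library total), which corrects for such a shift in composition. The targeted genes were read first: Xbp1 was at 2129 and 2203 CPM in WT of batch 2 and at 1302 and 1105 in Xbp1KO, and Prdm1 was at 301.4 and 306.3 CPM in WT of batch 1 and at 242.7 and 175.9 in Blimp1KO. Both knockouts lay below their WT, with log2 fold changes of -0.85 ± 0.25 (SE; adjusted p = 0.0939) and -0.54 ± 0.25 (adjusted p = 0.401). Xbp1 was also lower by estimate in Blimp1KO, at 3005 and 3008 CPM in WT of batch 1 and at 1371 and 1671 in Blimp1KO (-0.98 ± 0.25; adjusted p = 0.141), and the Xbp1KO effect minus the Blimp1KO effect was 0.14 ± 0.35 (adjusted p = 0.914). The Xbp1 level therefore does not set the Xbp1KO libraries apart. Gene-level counts do not show whether the functional exons are gone. The 9 plasma cell markers summed to 32500 to 118900 CPM per library, of which Jchain, the antibody joining chain, made up 89.4% to 94.3%, and the other 8 genes summed to 3431 to 6722 CPM. The list holds Prdm1 and Xbp1, the targeted genes, so its tallies are not independent of the genotypes. In Blimp1KO 9 of 9 estimates were below 0 (median -0.52) and 0 were called. In Xbp1KO 6 of 9 were above 0 and 3 below (median 0.12), and 1 was called lower. That was Mzb1, an ER protein of antibody-secreting cells, which fell by 1.96 ± 0.29 (adjusted p = 0.0120). Its call was lost without any 1 library of batch 2. With 1 library left out its estimate ran from -2.05 to -1.87.

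**Figure D1:**
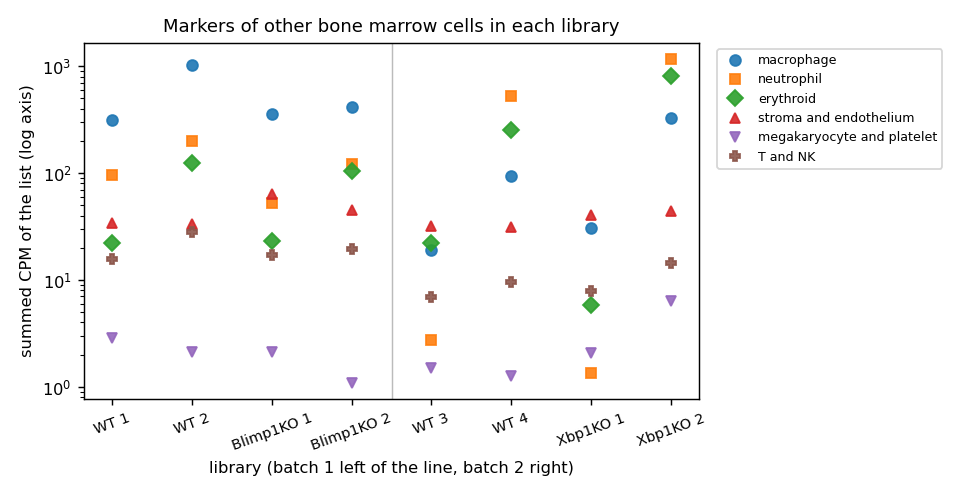
Summed CPM (log axis) of 6 lists of markers of other bone marrow cells, 1 point per list and library (x axis, batch 1 left of the line). In batch 2, the neutrophil sum was 2.74 and 1.35 CPM in WT replicate 3 and Xbp1KO replicate 1, and 520.6 and 1171 CPM in WT replicate 4 and Xbp1KO replicate 2.

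The batch 2 libraries differed within each group in transcripts of other cells. The erythroid sum (7 genes of 8 listed) was 22.0 and 250.7 CPM in WT replicates 3 and 4, and 5.86 and 813 CPM in Xbp1KO replicates 1 and 2. The macrophage sum (9 of 9 genes) was 19.0 and 93.4 CPM in that WT pair and 30.4 and 328.6 CPM in that Xbp1KO pair. Batch 1 libraries held such transcripts too. Their macrophage sum was 311.9 and 1037 CPM in WT replicates 1 and 2, and 353.2 and 419.2 CPM in Blimp1KO. Their erythroid sum was 22.2 and 123.1 CPM in that WT pair, and 23.3 and 104.7 CPM in Blimp1KO. In bulk samples, fewer cells of a type and less RNA per cell cannot be told apart. Results that rest on WT replicate 4 and Xbp1KO replicate 2 are given with and without them.

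Of the 6 members, 4 passed the rule on read counts given next, but Pmp22 and Sparc had at most 100 and 37 reads in any library. The 2 well-expressed members, Bloc1s1 and Hgsnat, fell in Xbp1KO. A gene was taken as too low where the filter on low counts removed it or where 6 or more libraries held under 10 reads. Scara3 was removed by the filter and Col6a1 had 6 libraries under 10. Per length and on the same scaling (FPKM, a CPM divided by gene length in kilobases), the WT libraries of batch 1 had Bloc1s1 at 29.9 and 28.6, Hgsnat at 10.9 and 10.5, and Pmp22 at 0.365 and 1.17. Bloc1s1 and Hgsnat are thus expressed messages of these cells, and the other 4 were near the floor of the assay.

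**Figure D2:**
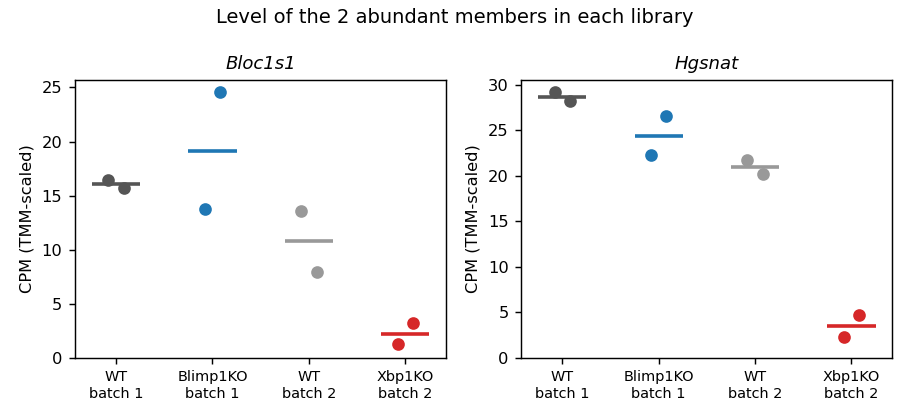
TMM-scaled CPM (y axis, from 0) of Bloc1s1 and Hgsnat in the 4 groups, 2 libraries each, with a line at the group mean. Both Xbp1KO libraries lie between 1.22 and 4.71 CPM, below every WT and Blimp1KO library.

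Hgsnat encodes the lysosomal acetyltransferase that helps to break down heparan sulfate (Entrez 52120, GRCm38.p6 chr8:25944459-25976744, minus strand). Its level was 21.8 and 20.2 CPM in WT of batch 2 (2550 and 1403 reads) and 2.31 and 4.71 CPM in Xbp1KO (433 and 437 reads). Both Xbp1KO libraries were below both WT libraries, and the 2 WT libraries were close. Hgsnat fell 6.00-fold, a log2 fold change of -2.59 ± 0.32 (SE; 95% interval -3.34 to -1.83; edgeR's quasi-likelihood test, adjusted p = 0.00658). It ranked 310 from the lowest estimate among 15073 genes tested. Hgsnat kept the call without both libraries richer in other cells, at -3.24 ± 0.30 (adjusted p = 0.0432), a fit in which the single libraries left are assumed to vary like the other groups.

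Bloc1s1 encodes a subunit shared by the BLOC-1 and BORC complexes, which act in the making and positioning of lysosome-related organelles and lysosomes (Entrez 14533, GRCm38.p6 chr10:128919914-128923524, minus strand). Its level was 13.6 and 7.97 CPM in WT of batch 2 (1588 and 553 reads) and 1.22 and 3.24 CPM in Xbp1KO (229 and 300 reads). The groups did not overlap, though the WT pair was spread more widely than for Hgsnat. Bloc1s1 fell 4.87-fold, a log2 fold change of -2.29 ± 0.51 (95% interval -3.49 to -1.08; edgeR adjusted p = 0.0435), and ranked 377 from the lowest. Within WT and within Xbp1KO, Bloc1s1 moved opposite ways with the markers of other cells, being lower in WT replicate 4 and higher in Xbp1KO replicate 2. Without those 2 libraries the estimate was -3.48 ± 0.48 and was no longer called (adjusted p = 0.0651). Without WT replicate 3 it was -1.86 (adjusted p = 0.179), and without Xbp1KO replicate 1 it was -1.82 (adjusted p = 0.106). The call was also lost without any 1 of WT replicates 1, 2 and 4 (adjusted p from 0.0812 to 0.0872), while the direction held in each.

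Read against all genes, 2 members lower is set beside 5.06% of 15073 genes called lower, 2.63% called higher and 7.7% called either way in Xbp1KO. Both Xbp1KO libraries lay below both WT libraries for 25.8% of all genes and above them for 31.8%. Over the 5 members that passed the filter, Col6a1 among them, the median log2 fold change was -0.16, against 0.08 over all genes. It is the estimate of Pmp22, with Hgsnat and Bloc1s1 below it and Col6a1 (1.53 ± 1.68) and Sparc (1.86 ± 1.38) above it. In GENCODE the span of Bloc1s1 overlaps that of its neighbour Rdh5 on the same strand. Rdh5 was at 0.0273 to 0.390 CPM in the 8 libraries, below Bloc1s1 in every one.

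Neither message passed the test in Blimp1KO. Hgsnat was at 29.2 and 28.2 CPM in WT of batch 1 and at 22.3 and 26.6 CPM in Blimp1KO. Both Blimp1KO libraries were below both WT libraries, as for 22.1% of all genes, with a log2 fold change of -0.24 ± 0.30 (95% interval -0.95 to 0.48; edgeR adjusted p = 0.834). Bloc1s1 was at 16.5 and 15.7 CPM in WT of batch 1 and at 13.8 and 24.6 CPM in Blimp1KO. The WT pair lay inside the range of the Blimp1KO pair, with a log2 fold change of 0.25 ± 0.48 (95% interval -0.89 to 1.40; adjusted p = 0.908). No member was called in Blimp1KO by edgeR, DESeq2 or limma, against 0.862% of all genes by edgeR, and none had an unadjusted p under 0.05. These intervals do not exclude a fall of up to 0.95 for Hgsnat and 0.89 for Bloc1s1 on the log2 scale.

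The effects of the knockouts were compared directly, with no library shared between them. Hgsnat differed by -2.35 ± 0.43 on the log2 scale (Xbp1KO effect minus Blimp1KO effect; 95% interval -3.37 to -1.33; edgeR adjusted p = 0.0519), which missed the threshold. Bloc1s1 differed by -2.54 ± 0.70 (95% interval -4.19 to -0.89; adjusted p = 0.133). The count of members called was thus 0, with both at an unadjusted p under 0.05, against 1.68% of all genes called. DESeq2 called both. Because each knockout has its own batch, batch and genotype cannot be told apart in this difference beyond what each batch's WT removes. WT itself was lower in batch 2 by estimate, at -0.45 ± 0.30 for Hgsnat (adjusted p = 0.359) and -0.58 ± 0.49 for Bloc1s1 (adjusted p = 0.464), and no member was called there, against 2.81% of all genes.

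Across the 8 libraries, log2 CPM of Bloc1s1 and Hgsnat gave a Pearson r of 0.971, a description that rests on the same 2 low Xbp1KO libraries. Among 7187 genes of moderate or high level, the genes most like Hgsnat were Cmas (r = 0.997), Itgb2 (r = 0.996) and Klhl21 (r = 0.993). Those most like Bloc1s1 were Tmem110 (r = 0.991), Cxxc5 (r = 0.990) and Vat1 (r = 0.990). Pearson r ignores the size of a change. In Xbp1KO the log2 fold change was -0.82 for Cmas, -3.41 for Itgb2 and -1.63 for Klhl21, against -2.59 for Hgsnat. It was -0.60 for Tmem110, -0.77 for Cxxc5 and -2.21 for Vat1, against -2.29 for Bloc1s1. Itgb2 is itself on the list of other substrates described next.

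**Figure D3:**
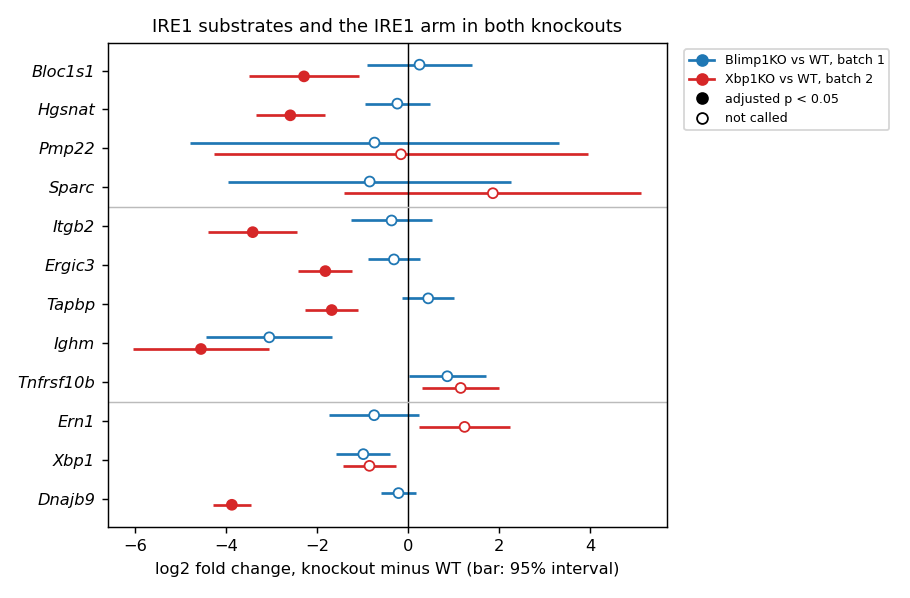
Log2 fold change (x axis, knockout minus WT of its batch) with 95% interval for both knockouts, filled where adjusted p was below 0.05. Shown are the 4 members that passed the rule on read counts, 5 other reported substrates, and Ern1, Xbp1 and Dnajb9. Every filled point is an Xbp1KO fall, from -1.68 (Tapbp) to -4.55 (Ighm).

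Other transcripts reported as cut by IRE1 were read beside the members. Of 6 tested, 4 fell and 0 rose in Xbp1KO, with a median of -1.75 against 0.08 over all genes. The median was -0.20 in Blimp1KO, where 0 were called. Without WT replicate 4 and Xbp1KO replicate 2, 1 of the 6 was called lower in Xbp1KO and 5 of 6 estimates were below 0. The list was assembled with earlier results of these data known.

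Itgb2, the beta chain of the leukocyte integrins, was at 190.4 and 195.5 CPM in WT of batch 2 and at 10.4 and 25.9 CPM in Xbp1KO. Both Xbp1KO libraries were far below WT, with a log2 fold change of -3.41 ± 0.41 (adjusted p = 0.00604). Tapbp, or tapasin, which loads peptides onto MHC class I, was at 235.0 and 229.3 CPM in WT and at 74.2 and 71.1 CPM in Xbp1KO, a change of -1.68 ± 0.25 (adjusted p = 0.0120). For both genes the pairs did not overlap. The Tapbp pairs were tight, whereas the Xbp1KO libraries differed more for Itgb2 (18.1 ± 10.9 CPM, SD, n = 2).

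Ergic3, a carrier of cargo between ER and Golgi, was at 107.0 and 94.9 CPM in WT of batch 2 and at 27.3 and 30.1 CPM in Xbp1KO, a change of -1.82 ± 0.25 (adjusted p = 0.00917). Ighm, the mu heavy chain gene, fell by 4.55 ± 0.63 on the log2 scale (adjusted p = 0.00930) and was also low in Blimp1KO by estimate, at -3.05 ± 0.59 (adjusted p = 0.0736). The Xbp1KO calls of these 3 genes were lost when single libraries were left out: that of Tapbp without any 1 library of batch 2 (adjusted p up to 0.0797), that of Ergic3 without WT replicate 3 or either Xbp1KO library (up to 0.0670), and that of Ighm without either Xbp1KO library (up to 0.0671). Itgb2 kept its call in all 8 such fits. Tnfrsf10b, the death receptor DR5, went the other way by estimate. It was at 1.10 and 1.63 CPM in WT of batch 2 and at 3.66 and 2.42 CPM in Xbp1KO, a change of 1.16 ± 0.36 (adjusted p = 0.104). Pdgfrb had at most 15 reads in any library and cannot be read.

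Loop letters varied among these genes. Itgb2 held 5 CTGCAG cores with a longest stem of 2 pairs, Ergic3 held 0, and Tapbp held 1 with a stem of 0 pairs.

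The enzyme's own gene was higher in Xbp1KO by estimate. Ern1 was at 143.5 and 106.2 CPM in WT of batch 2 and at 341.4 and 249.0 CPM in Xbp1KO. Both Xbp1KO libraries were above both WT libraries, with a log2 fold change of 1.24 ± 0.42 (95% interval 0.24 to 2.24; adjusted p = 0.131), which was not called. With 1 library left out this estimate ran from 0.92 to 1.47. Over 12 other settings it ran from 1.19 to 2.40 and was called in 5. In batch 1, Ern1 was at 102.9 and 77.1 CPM in WT and at 76.0 and 31.4 CPM in Blimp1KO, a change of -0.74 ± 0.42 (adjusted p = 0.513). The Xbp1KO effect minus the Blimp1KO effect was 1.99 ± 0.60 (adjusted p = 0.160). Of 12 genes of IRE1, its RNA ligase complex and its signalling partners, 11 were tested and 0 were called in either knockout. Ern2, the epithelial relative of IRE1, had at most 3 reads in a library.

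ER genes known as targets of spliced XBP1 also fell. Of 14 tested, 11 were called lower and 0 higher in Xbp1KO, against 5.06% and 2.63% of all genes, with a median of -1.44. The 1 estimate above 0 was that of Pdia4. It went from 1108 and 1165 CPM in WT of batch 2 to 2169 and 1664 CPM in Xbp1KO (0.75 ± 0.25; adjusted p = 0.129). Dnajb9, an ER co-chaperone known to hold IRE1 inactive, was at 186.2 and 203.4 CPM in WT of batch 2 and at 13.9 and 12.8 CPM in Xbp1KO. Its fall of 14.6-fold, at -3.87 ± 0.18 (adjusted p = 0.000342), was larger by estimate than that of Hgsnat or Bloc1s1. Dnajc3, an ER co-chaperone, fell by 2.78 ± 0.22 (adjusted p = 0.00193). Hyou1, an ER chaperone, fell by 2.38 ± 0.27 (adjusted p = 0.00490), and Sec24d, a COPII coat subunit, by 2.00 ± 0.19 (adjusted p = 0.00316). Without WT replicate 4 and Xbp1KO replicate 2, 1 of 14 was called and 13 of 14 estimates were below 0. In Blimp1KO 14 of 14 estimates were below 0, with a median of -0.54 and 0 called. Transcript levels do not separate mRNA cutting from lower transcription of a gene, and how much of each member's fall comes from either was not tested.

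Partners of the members in their complexes and pathways were read beside all genes, of which 2.63% were called higher and 5.06% lower in Xbp1KO. Of 12 other BLOC-1 and BORC subunits, 1 rose and 0 fell in Xbp1KO, with a median of 0.03. The one that rose was Bloc1s2, which went from 3.17 and 2.77 CPM in batch 2 WT to 7.10 and 6.50 CPM in Xbp1KO, a change of 1.20 ± 0.26 (adjusted p = 0.0381). Of 7 other lysosomal enzymes of heparan sulfate breakdown, 1 rose and 1 fell. Idua, the iduronidase, went from 23.4 and 22.0 CPM to 10.3 and 9.21 CPM, a change of -1.22 ± 0.14 (adjusted p = 0.00512). Gusb, the beta-glucuronidase, went from 88.2 and 96.5 CPM to 196.8 and 175.4 CPM, a change of 1.01 ± 0.21 (adjusted p = 0.0341). With 1 library left out, Bloc1s2 and Gusb were each called in 2 of 8 fits (adjusted p up to 0.207 and 0.198), and Idua in 6 of 8, being lost without WT replicate 3 or Xbp1KO replicate 2 (up to 0.0531).

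Of 17 genes of the machinery that clears cut mRNA fragments, 2 rose and 0 fell in Xbp1KO, with a median of 0.06. Both were exosome subunits, Exosc8 at 1.01 ± 0.21 (adjusted p = 0.0346) and Exosc2 at 0.72 ± 0.17 (adjusted p = 0.0471). With 1 library left out they were called in 2 and 1 of 8 fits (adjusted p up to 0.179 and 0.263). No gene of the BLOC-1, heparan sulfate and fragment lists was called in Blimp1KO. Without WT replicate 4 and Xbp1KO replicate 2, 0 genes of these 3 lists were called in Xbp1KO.

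**Figure D4:**
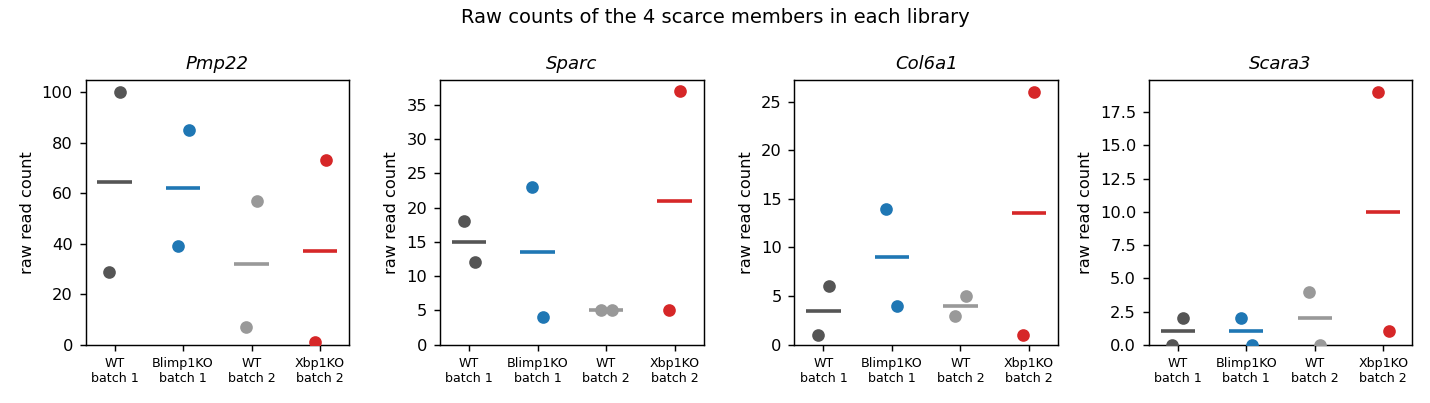
Raw read counts (y axis, from 0, a separate scale in each panel) of Pmp22, Sparc, Col6a1 and Scara3 in the 4 groups, 2 libraries each, with a line at the group mean. The highest Xbp1KO count of Pmp22, Sparc and Col6a1 is in replicate 2 (73, 37 and 26 reads), and that of Scara3 is in replicate 1 (19 reads).

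The scarce members followed single libraries. Pmp22, a myelin membrane protein also found in other cell types (Entrez 18858, chr11:63128982-63159547, plus strand), had 29 and 100 reads in WT of batch 1, 39 and 85 in Blimp1KO, 7 and 57 in WT of batch 2 and 1 and 73 in Xbp1KO. Replicates differed by more than groups did. The log2 fold change was -0.16 ± 1.74 in Xbp1KO (95% interval -4.26 to 3.94; adjusted p = 0.971) and -0.74 ± 1.72 in Blimp1KO (95% interval -4.79 to 3.32; adjusted p = 0.927). Without WT replicate 4 and Xbp1KO replicate 2 the Xbp1KO estimate was -3.19 ± 1.62 (adjusted p = 0.480), and without WT replicate 4 alone it was 2.66, so no direction can be read.

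The genes most like Pmp22 across the libraries were C1qc (r = 0.964), a complement gene of macrophages, Tyrobp (r = 0.954) and App (r = 0.954). C1qc was at 0.623 and 12.4 CPM in WT of batch 2 and at 0.241 and 29.5 CPM in Xbp1KO, the same high and low libraries as Pmp22. In batch 1, WT replicate 2 had the highest macrophage sum (1037 CPM) and the most Pmp22 reads. The part of other cells in the Pmp22 counts was not tested.

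Sparc, a secreted collagen-binding matrix protein (Entrez 20692, chr11:55394159-55420080, minus strand), had 18 and 12 reads in WT of batch 1, 23 and 4 in Blimp1KO, 5 and 5 in WT of batch 2 and 5 and 37 in Xbp1KO. The high value of Xbp1KO was 1 library. The log2 fold change in Xbp1KO was 1.86 ± 1.38 (95% interval -1.40 to 5.12; adjusted p = 0.480), and it was -1.004 without Xbp1KO replicate 2. In Blimp1KO it was -0.84 ± 1.31 (95% interval -3.95 to 2.26; adjusted p = 0.877). Of 14 stroma and endothelium markers, 11 were tested and 0 were called in either knockout, and 8 of the 11 estimates were below 0 in each, with medians of -0.92 in Blimp1KO and -0.25 in Xbp1KO. Their summed level ran from 31.0 to 34.2 CPM in WT, from 45.6 to 64.3 in Blimp1KO and from 40.9 to 43.7 in Xbp1KO, but Pecam1, an endothelial gene also expressed by blood cells, made up 68.3% to 95.8% of it. Without Pecam1 the sum was 10.8 and 4.03 CPM in WT of batch 1, 5.61 and 2.53 in Blimp1KO, 4.06 and 8.69 in WT of batch 2 and 1.71 and 8.21 in Xbp1KO. The part of these cells in the Sparc counts was not tested.

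Col6a1, a chain of collagen VI (Entrez 12833, chr10:76708792-76726044, minus strand), had 1 and 6 reads in WT of batch 1, 14 and 4 in Blimp1KO, 3 and 5 in WT of batch 2 and 1 and 26 in Xbp1KO. Scara3, a scavenger receptor-like protein (Entrez 219151, chr14:65919394-65953978, minus strand), had 0 and 2 reads in WT of batch 1, 2 and 0 in Blimp1KO, 4 and 0 in WT of batch 2 and 19 and 1 in Xbp1KO. Most of these values are single-digit read counts, and a count of 0 allows up to 3 reads. At these counts no change in either gene was detectable in either knockout. Of 7 matrix partners of Sparc and Col6a1, 6 were tested and 0 were called in either knockout. The same held for 2 of 3 genes of the Pmp22 family and for 4 class A scavenger receptors.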

How the data were processed

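Values were deposited as whole raw counts for each Entrez identifier and, in separate sample files, as log2 FPKM, per the file headers. Subread, featureCounts, limma and the build GRCm38 (mm10) are named, per the submitters' processing notes; versions and strand setting are not given in the sources used here. Genes were tested in R 4.3.3 with edgeR 4.0.16 (filterByExpr minimum count 10, 15073 genes; TMM; quasi-likelihood fit of 4 group means over 8 libraries; Benjamini-Hochberg over all genes; called at adjusted p below 0.05). CPM and FPKM levels use TMM library sizes. Errors after ± are SEs. Alternatives used limma 3.58.1 and DESeq2 1.42.0. In simulated counts, 100 of 15073 genes were changed at each size. Of those with a log2 change of 2, 54% (Blimp1KO) and 58% (Xbp1KO) were recovered, and 5% and 6% with a change of 1. More genes were called in the Xbp1KO data (1160) than were changed in the simulation, so these shares may not carry over to that comparison. Members, gene lists and tests were chosen with earlier results of these data known. Named were all members, Ern1, Xbp1, Dnajb9, the other substrates tested, up to 4 called genes per list by smallest p, and the 3 genes most like a member. Pdia4 was also named, as the 1 target of spliced XBP1 with an estimate above 0 in Xbp1KO. Positions are RefSeq GRCm38.p6. The series text calls the replicates biological. With 2 libraries a group, an exact permutation test cannot pass 0.05, so none was used.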

Additional observations from a re-analysis of the deposited data

Results flagged for a closer look

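The effects of the 2 knockouts differed by edgeR's test of the difference (Xbp1KO effect minus Blimp1KO effect, log2) for 5 of the genes named above, none of them a member. The difference was -3.66 ± 0.23 for Dnajb9 (adjusted p = 0.00288) and -2.27 ± 0.29 for Dnajc3 (adjusted p = 0.0220). Among the other reported substrates it was -3.05 ± 0.54 for Itgb2 (adjusted p = 0.0476) and -2.12 ± 0.35 for Tapbp (adjusted p = 0.0391). For Gusb it was 1.92 ± 0.30 (adjusted p = 0.0331), from a rise of 1.01 in Xbp1KO and a fall by estimate in Blimp1KO. There Gusb went from 122.9 and 155.0 CPM in WT of batch 1 to 64.4 and 84.0 CPM (-0.90 ± 0.21; adjusted p = 0.114). With 1 library left out, the call held in 7 of 8 fits for Dnajb9, 3 for Itgb2 and 2 each for Dnajc3, Tapbp and Gusb.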

How the results depend on the processing

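Hgsnat kept its Xbp1KO call under all 20 alternatives run, with adjusted p up to 0.0432, whereas Bloc1s1 kept its direction in all 20 and lost the call in 9. The count of members called in Xbp1KO was 1 with no scaling factors, with batch 2 alone, with the replicate block in batch 1 (a pairing by shared number only, correlation 0.218), and without WT replicate 4 and Xbp1KO replicate 2 together, an alternative chosen after seeing the data; it was 1 to 2 with 1 library left out. Members called for the difference of effects were 1 with RLE factors, without immunoglobulin genes, with limma-voom and with limma on the deposited FPKM, 2 with no filter and with DESeq2, and 0 to 1 with 1 library left out. Genes called in Blimp1KO numbered 130, but 5895 with no scaling, 517 with no filter, 813 with DESeq2, 83 with limma-voom, 20 with batch 1 alone, 269 against all WT, 31 without WT replicate 4 and Xbp1KO replicate 2, and 0 to 688 with 1 library left out. In Xbp1KO they numbered 1160, but 9474 with no scaling, 2172 with DESeq2, 59 without those 2 libraries and 225 to 2123 with 1 left out.

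With no scaling factors the median of all genes moved by 0.79 in Blimp1KO and 1.16 in Xbp1KO on the log2 scale. Estimates that changed sign there were, in Blimp1KO, Hgsnat 0.55, Pmp22 0.0088, Ern1 0.0833, Dnajb9 0.58, Itgb2 0.43 and Ergic3 0.47, in Xbp1KO, Pmp22 1.01 and Xbp1 0.30, and Hgsnat 0.13 between WT batches. Hgsnat and Bloc1s1 stayed lower in Xbp1KO, at -1.39 and -1.05. With 1 library left out, estimates that could change sign ran, in Blimp1KO, from -0.22 (without Blimp1KO replicate 2) to 0.66 for Bloc1s1, from -1.37 to 0.33 (without WT replicate 2) for Pmp22 and from -0.69 to 0.0422 (without Blimp1KO replicate 1) for Ergic3. In Xbp1KO they ran from -5.95 to 2.66 for Pmp22, which was above 0 without WT replicate 4 and, at 0.81, without Xbp1KO replicate 1, and from -1.004 (without Xbp1KO replicate 2) to 2.72 for Sparc. Ergic3 was at 0.0786 in Blimp1KO against all WT, and Sparc at -0.66 in Xbp1KO without WT replicate 4 and Xbp1KO replicate 2. Apart from what the settings remove, the cause was not tested.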
